A study of Mus musculus with 40 samples.

Results

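The NR4A nuclear receptors, the EGR zinc finger factors and 4 further early response genes were followed in mouse collecting duct cells carrying edits of CREB-family genes. The 10 genes, Nr4a1, Nr4a2, Nr4a3, Egr1, Egr2, Egr3, Ier2, Ier3, Klf4 and Btg2, were taken by symbol from the 55414 genes of the deposited expression table, and all 10 were found. RNA sequencing had been run on mpkCCD cells, an immortalised line from the mouse kidney collecting duct, cultured as a polarised layer on Transwell membranes. Every culture received 0.1 nM dDAVP, a vasopressin analogue, over 72 hours, so control and knockout libraries alike describe the stimulated state and no library shows the state without the hormone. No library has a shorter time, so the levels do not show the first response to the hormone. Of the 22 libraries with a column in the table, 11 come from unmodified control clones. The label ATF1-KO is carried by 5 libraries, ATF1/CREB1-KO by 3 and ATF1/CREB1/CREM-KO by 3. The other 18 of the 40 samples, in which a factor was returned to triple-knockout cells, were not analysed here.

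The libraries fall into 3 sets of consecutive library numbers, called runs here although the labels give no such name. Run 1 holds control clones 1 to 5 with the 5 ATF1-KO libraries, run 2 control clones 6 to 8 with the 3 ATF1/CREB1-KO libraries, and run 3 control clones 9 to 11 with the 3 ATF1/CREB1/CREM-KO libraries. Each label was compared with the control clones of its own run. Control libraries are named as clones, whereas nothing says whether replicates under a knockout label come from several clones or from several cultures of 1 clone. The p-values therefore measure the spread between these libraries, part of which may be technical.

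Immediate early genes are transcribed within minutes of a stimulus without new protein synthesis. The NR4A genes are textbook targets of cyclic AMP signalling, since CREB-family factors bind cAMP response elements in their promoters, whereas the EGR genes are driven largely by serum response factor with ETS-domain partners below the ERK kinases. In the collecting duct principal cell, vasopressin acts through its V2 receptor to raise cyclic AMP and activate protein kinase A, which phosphorylates CREB, ATF1 and CREM. NR4A proteins are orphan nuclear receptors that work without a known hormone, EGR proteins bind GC-rich sites, and BTG2 is an antiproliferative cofactor of mRNA deadenylation.

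The promoters of the 5 genes below are shown because these genes were the ones with lower values in all libraries of the triple or double knockout label and a window in the RefSeq promoter table (GRCm38.p6). Each sequence reads 5′ to 3′ on the strand of the gene, ends at the RefSeq start, and has in capitals every TGACG, the core of a cAMP response element, or its reverse complement CGTCA. Bases that lie in a GENCODE exon are left out, so the Nr4a3 sequence stops short of the RefSeq start after 98 bases. The Nr4a1 and Egr2 stretches lie inside the annotated gene but outside its exons.
Nr4a1, chr15:101266596-101266845, plus strand: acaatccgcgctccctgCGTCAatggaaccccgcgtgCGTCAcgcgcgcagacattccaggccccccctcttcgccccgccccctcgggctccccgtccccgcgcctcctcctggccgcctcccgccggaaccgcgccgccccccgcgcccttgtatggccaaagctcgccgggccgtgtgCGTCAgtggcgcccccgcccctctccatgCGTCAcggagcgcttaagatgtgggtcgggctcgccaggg
Nr4a2, chr2:57124004-57124253, minus strand: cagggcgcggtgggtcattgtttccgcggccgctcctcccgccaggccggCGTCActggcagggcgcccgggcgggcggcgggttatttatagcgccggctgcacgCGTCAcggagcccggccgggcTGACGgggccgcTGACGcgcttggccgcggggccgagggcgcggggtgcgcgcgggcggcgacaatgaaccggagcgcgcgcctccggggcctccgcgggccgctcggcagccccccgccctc
Nr4a3, chr4:48045055-48045152, plus strand: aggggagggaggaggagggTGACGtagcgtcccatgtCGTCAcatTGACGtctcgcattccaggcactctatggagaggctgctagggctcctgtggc
Egr2, start 3 of 5 in RefSeq, chr10:67537619-67537868, plus strand: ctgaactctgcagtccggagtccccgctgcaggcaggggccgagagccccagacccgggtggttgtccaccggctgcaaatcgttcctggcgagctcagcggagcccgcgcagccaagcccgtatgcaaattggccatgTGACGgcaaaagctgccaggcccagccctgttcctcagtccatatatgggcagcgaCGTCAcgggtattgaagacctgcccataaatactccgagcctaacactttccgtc
Btg2, chr1:134079156-134079405, minus strand: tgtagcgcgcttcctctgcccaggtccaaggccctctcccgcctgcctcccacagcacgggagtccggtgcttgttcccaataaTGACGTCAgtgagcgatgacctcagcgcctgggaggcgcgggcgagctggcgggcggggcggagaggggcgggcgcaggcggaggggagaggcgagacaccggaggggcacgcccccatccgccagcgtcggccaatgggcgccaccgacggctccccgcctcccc

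Motifs were searched on both strands of the RefSeq window from 250 bases before to 50 after each start. Windows were found for 7 of the 10 genes, and Egr1, Egr3 and Ier2 had none in the table. TGACG was found in at least 1 window of 6 of the 7 genes. Counted per window rather than per gene, it was in 20.8% of all 32851 windows. Egr2 had 5 windows and each other gene 1, so the 2 shares differ in unit. The 3 NR4A windows held 4 copies each. In Nr4a1 they began 233, 213, 69 and 40 bases before the start, all on the reverse strand. Btg2 alone of the 7 held the full palindrome TGACGTCA, 166 to 159 bases before its start, a motif in 1.79% of all windows. The palindrome accounts for both TGACG matches of that window, 1 on each strand.

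Egr2 had a CArG box, the binding motif of serum response factor, in 4 of its 5 windows, some of which overlap, against 1.63% of all windows, and TGACG in 3 of them. GCGNGGGCG, the site bound by EGR proteins, was found in at least 1 window of 4 of the 7 genes, Nr4a1, Nr4a2, Klf4 and Btg2. Counted per window, it was in 5.55% of all windows. Ier3 held no TGACG. A match describes letters in a window and does not show binding.

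The labels were first checked against the targeted genes, for which gene-level values do not show an edit, so the knockout state rests on the label. In run 3, Creb1 stood at 37.7 ± 1.61 TPM (SD, n = 3) in control clones and 18.7 ± 0.593 in the ATF1/CREB1/CREM-KO libraries, and Aqp2, the vasopressin-regulated water channel, at 1516 ± 825 and 15.5 ± 0.499. In run 2, Creb1 stood at 5.55 ± 0.984 and 3.39 ± 0.596 (n = 3 each), and in run 1 Atf1 at 42.2 ± 4.22 and 26.6 ± 8.88 (n = 5 each). Atf1 overlapped its control clones under the other labels, at 15.1 to 23.7 against 23.3 to 26.2 TPM in run 2 and 23.7 to 40.8 against 39.8 to 40.5 TPM in run 3. Crem was not lower in the triple knockout label, at 30.5 ± 4.02 against 22.7 ± 2.48 in control clones. Where not named in the label, Creb1 and Crem had higher means than in control clones. Crem was at 27.5 ± 16.7 against 10.9 ± 1.95 TPM in run 2, without overlap. In run 1 Creb1 was at 39.0 ± 1.40 against 30.6 ± 2.39, without overlap, and Crem overlapped. Limma, the test used below, called none of these with own-run libraries (adjusted p from 0.467 to 0.628). A fit over 22 libraries called Crem in run 2 (limma adjusted p = 0.0261), beside 4.58% of genes. Of 9 collecting duct principal cell markers, 8 had a mean of at least 1 TPM, and their sum ranged from 2013 to 10400 TPM. Of the markers of other cells, 1 of 4 for intercalated cells, 1 of 3 for proximal tubule, 0 of 3 for loop and distal tubule and 1 of 6 for stroma, endothelium and blood reached that mean. In run 3 the summed loop and distal markers were at 0.04 to 0.14 TPM in control clones and 1.96 to 4.40 TPM in the triple label, made up of Slc12a3 at 1.24 to 4.40 TPM, Umod at 0 to 0.69 TPM and Slc12a1 at 0 to 0.03 TPM. The summed stroma, endothelium and blood markers were at 5.05 to 8.24 TPM in control clones and 2.40 to 3.35 TPM in the triple label. Cd68 made up most of that sum, at means of 6.19 and 2.49 TPM. Col1a1, Pdgfrb and Kdr had control means of 0.077, 0.053 and 0.01 TPM and were listed at 0 in the triple label. Ptprc and Pecam1 had higher means there. The summed collecting duct markers were at 7420 to 10400 and 5155 to 6525 TPM. Mean Krt18, Aqp2 and Krt8 were lower in the triple label, whereas Cdh1 went from 818 ± 32.4 to 1245 ± 39.0 TPM. Of the 8 tested, 6 changed downward and 2 upward on the log2 scale. In run 2 the loop and distal sum was at 0.06 to 0.23 TPM in control clones and 0.24 to 0.79 TPM in the double label, with Umod listed at 0 in all 6 libraries, and the intercalated sum at 32.4 to 35.5 and 37.8 to 45.8 TPM. These sums moved with the triple and the double label, and their part in the results on the early genes was not tested. The 89 ribosomal protein genes took 7.21% to 15.3% of TPM in run 2 and 2.69% to 4.15% in runs 1 and 3, and control clones of run 2 stood apart in the early genes too.

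TPM, the unit of transcript abundance in the table, corrects for transcript length and scales each library to a fixed total, so levels of different genes can be compared but read depth is unknown. Over the 11 control clones the most abundant of the 10 genes were Ier2, at 132 ± 68.0 TPM (SD, n = 11), and Egr1, at 104 ± 56.0, and Ier2 was above Egr1 within each of the 11 clones. Btg2 at 68.5 ± 22.0 and Ier3 at 66.5 ± 16.6 followed, with an order that depended on the run: Btg2 was the higher in 4 of 5 clones of run 1, 0 of 3 of run 2 and 2 of 3 of run 3. Nr4a1 came next at 30.3 ± 17.0. Egr2 at 7.82 ± 5.45 and Nr4a2 at 6.40 ± 3.14 also changed places, Egr2 being the higher in 5 of 5 clones of run 1, 0 of 3 of run 2 and 2 of 3 of run 3. Egr3 stood at 1.18 ± 0.653, and Klf4 and Nr4a3 at 0.312 ± 0.304 and 0.236 ± 0.238.

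In the 3 control clones of run 2, Egr2 was at 14.8% of its mean in the other 8 control clones, Egr1 at 18.3%, Nr4a1 at 21.4%, Ier2 at 25.4%, Nr4a2 at 29.4% and Btg2 at 51.0%. For these 6 genes every run 2 control clone lay below every other control clone. Ier3, at 93.1%, did not share that shift, so that in run 2 Ier3 led at 63.1 ± 5.44 TPM, above Ier2 at 42.0 ± 3.97 and Egr1 at 24.5 ± 4.19 (n = 3 each). Nr4a3 was at 350% of the other control clones, with overlapping values. The higher ribosomal protein share of run 2 moved with these levels, and its part in them was not tested. The plot of all values by library shows both the run 2 shift and the changes described next.

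**Figure D1:**
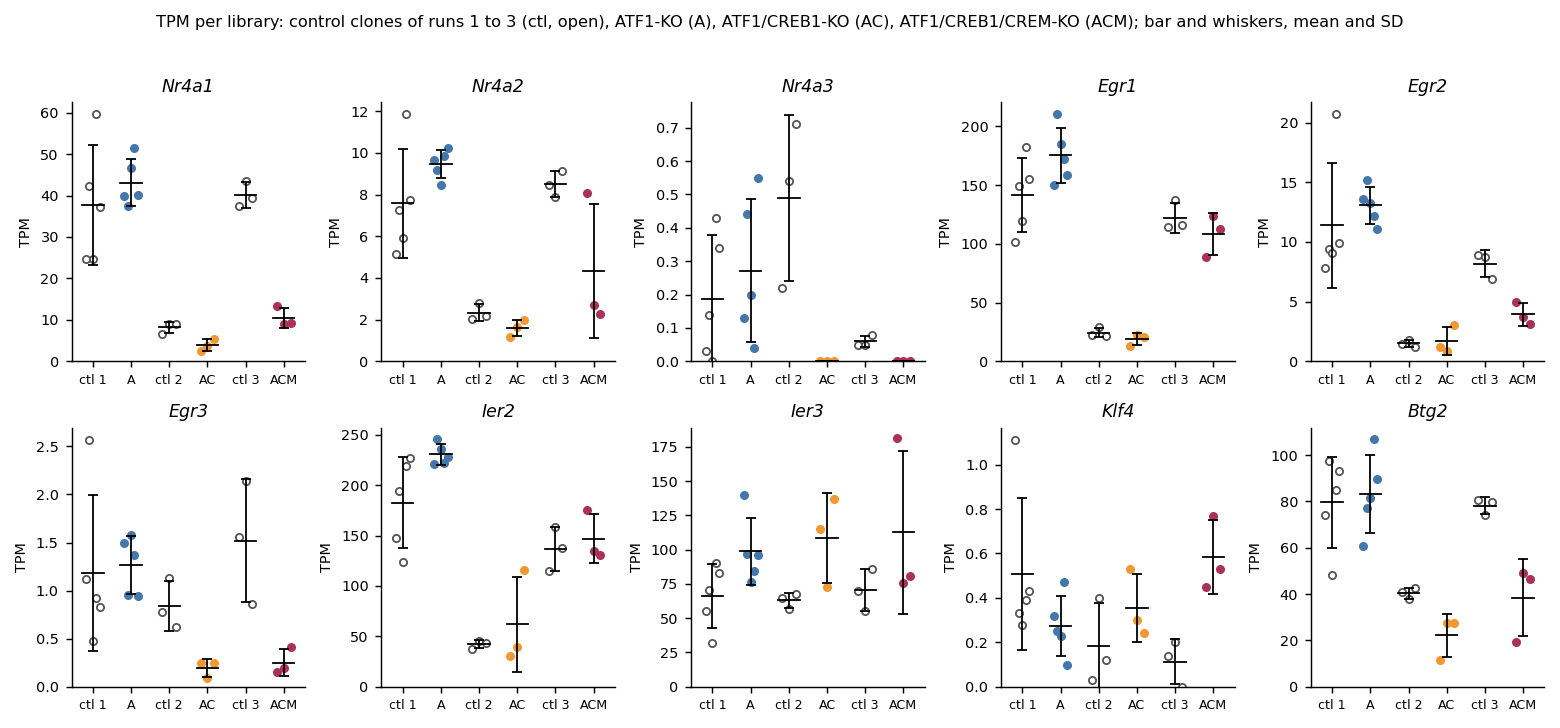
TPM of each of the 10 genes (vertical axes, linear, from 0) in the control clones of runs 1 to 3 (ctl, open circles) and under the labels ATF1-KO (A), ATF1/CREB1-KO (AC) and ATF1/CREB1/CREM-KO (ACM), 1 point per library, with a horizontal bar at the mean and whiskers of 1 SD. Nr4a1 of the triple label lies between 9.09 and 13.4 TPM, below the 37.4 to 43.5 TPM of its own control clones, whereas Egr1 of the same libraries overlaps its controls.

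Differences were tested with limma on log2(TPM + 1) over every gene whose mean reached 1 TPM, and a gene was called changed at a Benjamini-Hochberg adjusted p under 0.05 over all genes tested. In the ATF1/CREB1/CREM-KO libraries 2 of the 7 members tested were called, Nr4a1 and Egr2, both lower, against 9.17% of the 13258 genes tested in either direction and 5.26% called lower. In the ATF1/CREB1-KO libraries limma called 0 of 7, with 0.0715% of 12579 genes called, and 3 of the 7 had an unadjusted p under 0.05 against 9.53% of genes. In the ATF1-KO libraries limma called 0 of 8, as it called 0 of all 13318 genes (0%), and 2 of the 8 had an unadjusted p under 0.05 against 7.61% of genes. Members under the TPM minimum were Nr4a3 and Klf4 in every comparison and Egr3 in the double and triple ones. The median log2 change of the members tested was 0.29 in ATF1-KO, -0.36 in ATF1/CREB1-KO and -0.91 in ATF1/CREB1/CREM-KO, beside medians over all genes of -0.0035, -0.03 and -0.05.

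Among the NR4A receptors, Nr4a1 (Nur77; GRCm38 chromosome 15, 101254269 to 101274795) had the largest log2 change of the members tested. In run 3 its level was 37.4, 43.5 and 39.5 TPM in control clones 9 to 11 and 13.4, 9.09 and 9.18 TPM in the ATF1/CREB1/CREM-KO libraries. All 3 knockout libraries lay far below all 3 controls, and the group mean was 26.3% of the control mean, 3.80-fold lower. On the log2(TPM + 1) scale Nr4a1 fell by 1.85 with a standard error of 0.16, and a 95% interval from -2.24 to -1.46 (limma, adjusted p = 0.00259). The call held when each of the 6 libraries was left out in turn, with changes from -2.02 to -1.76 and limma adjusted p from 1.73e-04 to 0.0256. Set against all 11 control clones, which include the low run 2 clones, the change was -1.19 and was not called (limma adjusted p = 0.548), where 1.03% of genes were called.

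In run 2 Nr4a1 was at 6.70, 9.09 and 8.95 TPM in control clones 6 to 8 and at 2.56, 3.69 and 5.40 TPM in the ATF1/CREB1-KO libraries. The groups did not overlap, and the knockout mean was 47.1% of the control mean. The log2 change was -0.95 with a standard error of 0.26 (95% interval -1.55 to -0.35), which limma did not call with the 6 libraries alone (adjusted p = 0.368). It was called when the spread was estimated in 1 fit over all 22 libraries (limma adjusted p = 0.0438), where 4.58% of genes were called. In run 1 Nr4a1 stood at 24.8, 42.2, 24.6, 59.6 and 37.3 TPM in control clones 1 to 5 and at 39.9, 37.5, 46.7, 51.4 and 40.0 TPM in the ATF1-KO libraries. The ATF1-KO values lay inside the control range, with a log2 change of 0.26 (limma adjusted p = 0.781).

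Nr4a2 (Nurr1; chromosome 2, 57106830 to 57124003) showed 1 discordant library in the triple label. It stood at 8.46, 7.89 and 9.12 TPM in control clones 9 to 11 and at 8.05, 2.69 and 2.26 TPM in ATF1/CREB1/CREM-KO replicates 1, 2 and 3. Replicate 1 lay among the controls, while replicates 2 and 3 lay below them. The log2 change over all 3 was -0.99 with a standard error of 0.38 (limma adjusted p = 0.157), and without replicate 1 it was -1.45 (limma adjusted p = 0.00193). Without that library 25.1% of all genes were called, so the share called in the whole table rose as well. The fit over 22 libraries also called Nr4a2 with all 3 replicates (limma adjusted p = 0.0383), where 8.02% of genes were called.

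In run 2 Nr4a2 was at 2.02, 2.80 and 2.17 TPM in the control clones and at 1.19, 1.63 and 1.96 TPM in the ATF1/CREB1-KO libraries. The groups just failed to overlap, and the log2 change of -0.36 with a standard error of 0.23 was not called (limma adjusted p = 0.663). In run 1 the ATF1-KO libraries held 8.46 to 10.2 TPM, within the 5.13 to 11.9 TPM of control clones 1 to 5. The SD of Nr4a2 was 0.677 TPM in the ATF1-KO libraries and 2.62 TPM in those clones.

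Nr4a3 (Nor1), the last receptor of the family, was scarce in all libraries and was listed at 0 in all 3 ATF1/CREB1-KO and all 3 ATF1/CREB1/CREM-KO libraries. Control clones 6 to 8 had 0.22, 0.54 and 0.71 TPM, and control clones 9 to 11 had 0.05, 0.05 and 0.08 TPM. Control clone 3 was also listed at 0, and the ATF1-KO libraries ranged from 0.04 to 0.55 TPM. A value listed at 0 can mean no reads or an estimate that failed, and with unknown depth no fold is given. With no minimum on TPM, limma gave an adjusted p of 0.428 in run 2 and 0.314 in run 3.

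Of the EGR factors, Egr1 was the most abundant and Egr2 the one called in the triple label. Egr2 (Krox20; chromosome 10, 67535475 to 67542188) stood at 8.94, 8.74 and 6.87 TPM in control clones 9 to 11 and at 5.01, 3.70 and 3.09 TPM in the ATF1/CREB1/CREM-KO libraries. Each knockout library lay below each control, and the mean was 48.1% of the control mean, 2.08-fold lower. Egr2 fell by 0.91 on the log2 scale with a standard error of 0.20 and a 95% interval from -1.38 to -0.43 (limma, adjusted p = 0.0394). The call was lost when any of the 3 control clones or replicate 2 or 3 was left out, with limma adjusted p up to 0.151, and held without replicate 1, at 0.00809. It was also lost in the fit over 22 libraries (limma adjusted p = 0.0557) and with no minimum on TPM (0.107).

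In run 2 Egr2 was near the minimum, at 1.45, 1.83 and 1.24 TPM in control clones and at 1.21, 0.83 and 3.01 TPM in the ATF1/CREB1-KO libraries. Replicate 3 lay above all controls and the other 2 below all of them, with a log2 change of 0.02 and a standard error of 0.34 (limma adjusted p = 0.985). That same library had a ribosomal protein share of 7.21%, against 13.2% and 12.7% in replicates 1 and 2 and 14.4% to 15.3% in the control clones, and the part of this difference in its values was not tested. In run 1 Egr2 was at 7.82, 9.45, 9.09, 20.7 and 9.91 TPM in control clones 1 to 5 and at 11.1 to 15.2 TPM in the ATF1-KO libraries. Control clone 4 stood above every other library of the run.

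Egr1 was not called under any label. In run 3 it was at 114, 137 and 116 TPM in control clones 9 to 11 and at 89.1, 124 and 112 TPM in the ATF1/CREB1/CREM-KO libraries. The groups overlapped, and the log2 change was -0.18 with a 95% interval from -0.52 to 0.16 (limma adjusted p = 0.456). In run 2 it stood at 22.4, 29.4 and 21.9 TPM in control clones and at 13.1, 22.5 and 20.8 TPM in the ATF1/CREB1-KO libraries. These groups overlapped through replicate 2, with a log2 change of -0.39 and a standard error of 0.26 (limma adjusted p = 0.682), and of -0.16 without replicate 1. In run 1 the level was 102, 149, 120, 183 and 155 TPM in control clones and 150, 211, 185, 172 and 159 TPM in the ATF1-KO libraries, which all lay above the control mean of 142 TPM. The log2 change there was 0.32, with an interval from -0.01 to 0.66 (limma adjusted p = 0.672).

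Egr3 lay close to 1 TPM. It stood at 1.56, 2.14 and 0.86 TPM in control clones 9 to 11 and at 0.15, 0.19 and 0.41 TPM in the ATF1/CREB1/CREM-KO libraries. In run 2 it was at 0.78, 1.13 and 0.62 TPM in control clones and at 0.25, 0.09 and 0.25 TPM in the ATF1/CREB1-KO libraries. Neither pair of groups overlapped, and the knockout means were 16.4% and 23.3% of the control means in runs 3 and 2. Egr3 missed the TPM minimum in both comparisons. With no minimum, limma did not call it, at log2 changes of -0.98 (adjusted p = 0.0822) and -0.62 (adjusted p = 0.414). In ATF1-KO it was tested, with a log2 change of 0.11 (limma adjusted p = 0.918).

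The 2 IER genes, a nuclear regulator (Ier2) and a short-lived stress-response protein (Ier3), were not lower in the triple label. Ier2 was at 114, 159 and 138 TPM in control clones 9 to 11 and at 175, 135 and 131 TPM in the ATF1/CREB1/CREM-KO libraries, with a log2 change of 0.10 (95% interval -0.28 to 0.48, limma adjusted p = 0.717). In run 2 it stood at 37.5, 45.1 and 43.4 TPM in control clones and at 30.1, 39.5 and 116 TPM in the ATF1/CREB1-KO libraries. Replicate 3, the library with the lower ribosomal share, held the high value and set the sign of the log2 change of 0.30, which was -0.27 without it. In run 1 Ier2 had 221, 246, 236, 222 and 228 TPM in the ATF1-KO libraries and 124 to 227 TPM in control clones 1 to 5. All 5 ATF1-KO libraries lay above the control mean of 182 TPM, with a log2 change of 0.37 (95% interval 0.04 to 0.71) that was not called (limma adjusted p = 0.637). An exact two-sided permutation test gave p = 0.0317 and 0.2 after adjustment over the 30 tests of 10 genes and 3 labels.

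Ier3 had a higher mean than the control clones under each label, and none of the 3 changes was called. In run 2 it was at 64.9, 57.0 and 67.5 TPM in control clones and at 115, 72.6 and 137 TPM in the ATF1/CREB1-KO libraries. The groups did not overlap, with a log2 change of 0.73 and a standard error of 0.27 (limma adjusted p = 0.483). In run 3 it was at 69.9, 55.3 and 85.8 TPM in control clones and at 182, 75.8 and 80.6 TPM in the ATF1/CREB1/CREM-KO libraries. Replicate 1 held the high value, and without it the log2 change of 0.57 was 0.17. In run 1 the ATF1-KO libraries had 140, 97.0, 76.6, 84.8 and 96.3 TPM against 32.2 to 90.4 TPM in control clones, with a log2 change of 0.62 with a standard error of 0.26 (limma adjusted p = 0.637).

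Klf4, a zinc finger factor of epithelial differentiation, was scarce. It was at 0.14, 0.20 and 0 TPM in control clones 9 to 11 and at 0.45, 0.77 and 0.53 TPM in the ATF1/CREB1/CREM-KO libraries, with no overlap. It missed the TPM minimum, and with no minimum the log2 change of 0.51 was not called (limma adjusted p = 0.0840). In run 2 the control clones ranged from 0.03 to 0.40 TPM and the ATF1/CREB1-KO libraries from 0.24 to 0.53 TPM, and in run 1 the ranges also overlapped.

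Btg2 (chromosome 1, 134075170 to 134079120) was lower in every library of the double and triple labels than in every own-run control clone. In run 3 it stood at 80.8, 74.0 and 79.7 TPM in control clones and at 19.4, 49.3 and 46.6 TPM in the ATF1/CREB1/CREM-KO libraries. Replicate 1 was the lowest, the reverse of its place for Nr4a2. The mean was 49.1% of the control mean, and the log2 change was -1.12 with a standard error of 0.33 and a 95% interval from -1.91 to -0.32 (limma adjusted p = 0.0875). Without replicate 1 the change was smaller, -0.69, and was called (limma adjusted p = 0.00199), and it was called in the fit over 22 libraries (limma adjusted p = 0.0421).

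In run 2 Btg2 was at 40.9, 37.7 and 42.5 TPM in control clones and at 11.4, 27.7 and 27.6 TPM in the ATF1/CREB1-KO libraries. The knockout mean was 55.1% of the control mean, with a log2 change of -0.93 and a standard error of 0.35 (limma adjusted p = 0.483), and of -0.53 without replicate 1, the lowest library. In run 1 Btg2 ranged from 48.5 to 97.6 TPM in control clones and from 60.6 to 107 TPM in the ATF1-KO libraries, with a log2 change of 0.08 (limma adjusted p = 0.929). In such bulk samples, fewer cells with a transcript and less transcript per cell cannot be told apart.

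**Figure D2:**
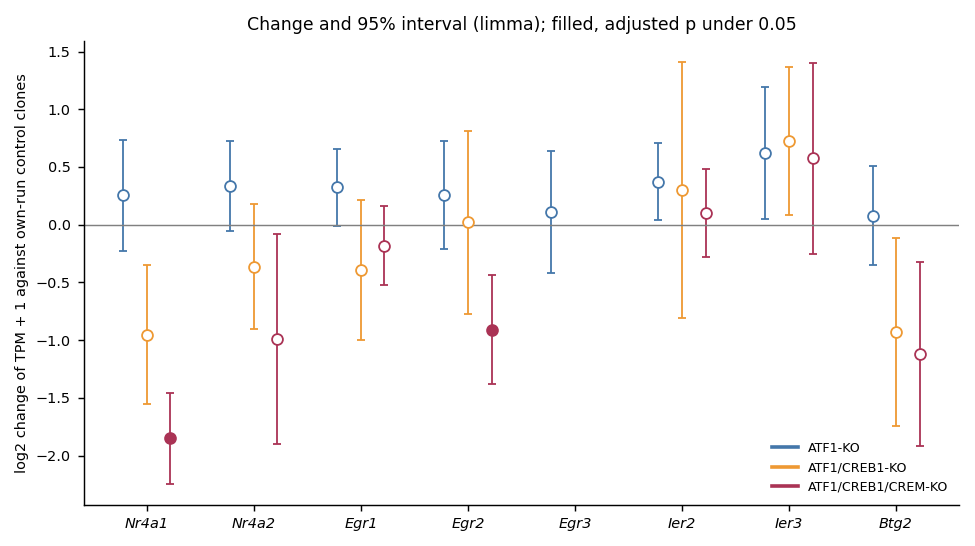
Log2 change of TPM + 1 against own-run control clones (vertical axis) for members whose mean reached 1 TPM, by label, with the 95% interval from limma and filled points at an adjusted p under 0.05. Nr4a1 at -1.85 and Egr2 at -0.91 in the triple label are the filled points, and Ier3 lies above 0 under each label.

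The 10 members were also sorted by whether the groups overlapped. In ATF1/CREB1-KO 5 members were lower in every library (Nr4a1, Nr4a2, Nr4a3, Egr3 and Btg2) and 1 was higher in every library (Ier3), whereas among all 12579 genes tested 12.4% were lower and 6.67% higher in all. In ATF1/CREB1/CREM-KO 5 were lower in every library (Nr4a1, Nr4a3, Egr2, Egr3 and Btg2) and 1 was higher (Klf4), where 20.2% of 13258 genes were lower and 14.5% higher in all. Of the members that passed the TPM minimum, 3 of 7 were lower in all under each of these labels. In ATF1-KO no member was separate from the control clones, where 1.30% of 13318 genes were, although 9 of the 10 had a higher mean and Klf4 a lower one. An exact permutation test of 3 against 3 libraries cannot go below p = 0.1, which the separate members reached.

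Single libraries departed from their group in different genes. In the plot of percentages, ATF1/CREB1/CREM-KO replicate 1 held the highest value of its label for Nr4a1, Nr4a2, Egr2, Ier2 and Ier3 and the lowest for Btg2 and Egr1. Among the ATF1/CREB1-KO libraries replicate 1 was lowest for Nr4a1, Nr4a2, Btg2, Egr1 and Ier2, and replicate 3 was highest for Nr4a1, Nr4a2, Egr2, Ier2 and Ier3. The order of the members therefore depended on the library, whereas of the plotted members Nr4a1 and Btg2 were below their own-run control clones in each of the 6. So were Nr4a3 and Egr3, which missed the TPM minimum under both labels and are not plotted. The share of all genes lower in every library of both labels was not counted.

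**Figure D3:**
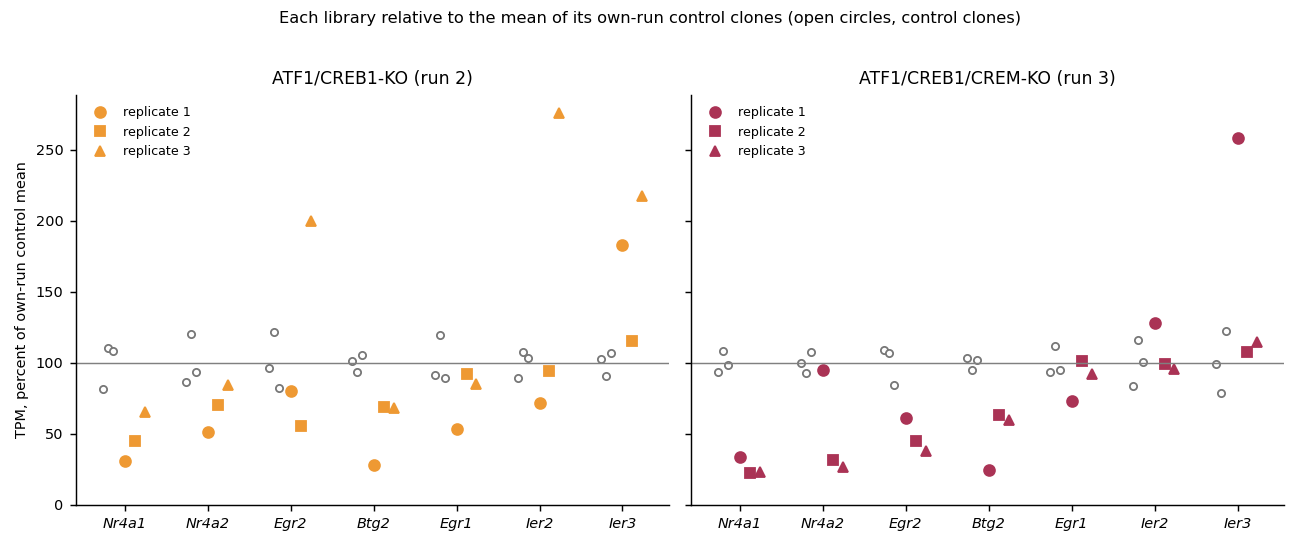
TPM of each library as a percentage of its own-run control mean (vertical axis, linear, from 0) for 7 members, with control clones as open circles and the 3 knockout libraries of each label by symbol. For Nr4a1 all 6 knockout libraries lie below the control clones, whereas Nr4a2 in replicate 1 of the triple label lies near 100 and Ier3 reaches above 200 in 1 library of each label.

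The changes under different labels were compared in 1 limma fit over the 22 libraries, as differences between own-run changes, in which 7 members were tested. Each label is in 1 run only, so label and run cannot be told apart in any of these differences. Between the triple and the ATF1-KO label 2 of the 7 differed, both lower in the triple label, beside 3.57% of 13295 genes in either direction and 2.53% lower. For Nr4a1 the difference was -2.11 with a standard error of 0.33 (limma adjusted p = 8.30e-04). For Nr4a2 it was -1.32 with a standard error of 0.36 (limma adjusted p = 0.0489), and with 1 library left out the call held only without control clone 4 (0.0212) or triple-label replicate 1 (6.12e-04), the others giving up to 0.174. The Egr2 difference of -1.16 (limma adjusted p = 0.0871, and 0.0113 without control clone 4) and the Btg2 difference of -1.19 (limma adjusted p = 0.144) were not called.

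Between the ATF1/CREB1-KO and ATF1-KO labels limma called 0 of 7 members and 1.46% of genes, and 3 members had an unadjusted p under 0.05, as did 15.5% of genes. The Nr4a1 difference was -1.21 (limma adjusted p = 0.0776) and was called without control clone 4 (limma adjusted p = 0.0206), without ATF1/CREB1-KO replicate 3 (0.0225) and with median-ratio scaling (0.0285). Between the triple and the double label limma called 0 of 7 members and 0.188% of genes, with 2 members and 8.39% of genes at an unadjusted p under 0.05. There the differences were -0.90 for Nr4a1 (limma adjusted p = 0.522), -0.62 for Nr4a2 (0.705), -0.93 for Egr2 (0.549) and -0.19 for Btg2 (0.927). With a pseudocount of 0.1 or median-ratio scaling, 0 of the 7 members had an unadjusted p under 0.05 in limma. Of 13295 genes, 1058 and 1208 had such a p in those fits, in that order. A step from double to triple knockout was therefore not resolved for these genes, and their runs differ as well as their labels.

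Ratios within a library do not depend on its scaling. Nr4a1 stood at 0.329 ± 0.0121 of Egr1 in control clones 9 to 11 and at 0.102 ± 0.0421 in the ATF1/CREB1/CREM-KO libraries (SD, n = 3 each), with no overlap. In run 2 the ratio was 0.339 ± 0.0605 in control clones and 0.206 ± 0.0487 in the ATF1/CREB1-KO libraries, also with no overlap. In run 1 it was 0.260 ± 0.0462 and 0.249 ± 0.0439 (n = 5 each). Unlike the levels, the Nr4a1 to Egr1 ratio of the run 2 control clones was no lower than in the other runs. Nr4a2 relative to Nr4a1 was 0.213 ± 0.0274 in control clones and 0.381 ± 0.193 in knockout libraries of run 3, and 0.284 ± 0.0361 and 0.423 ± 0.0534 in run 2. Control and knockout ratios did not overlap in either run.

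The members varied together among control clones. On log2(TPM + 1) less the own-run control mean, the 21 pairs of 7 members had a median Pearson r of 0.72 over the 11 control clones, from 0.19 to 0.90, led by Nr4a1 with Nr4a2 at 0.90, Ier3 with Btg2 at 0.89 and Nr4a1 with Egr1 at 0.87. Over all 22 libraries the median was 0.47, and Nr4a1 with Nr4a2 remained the highest pair at 0.89. Ier3 with Btg2 was at -0.36 over the 22 libraries, and Nr4a1 with Ier3 went from 0.68 to -0.10. The values of 1 library share its RNA and its scaling, and these coefficients are descriptions. No such median was taken for pairs of other genes, so 0.72 is not shown to be particular to the members.

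**Figure D4:**
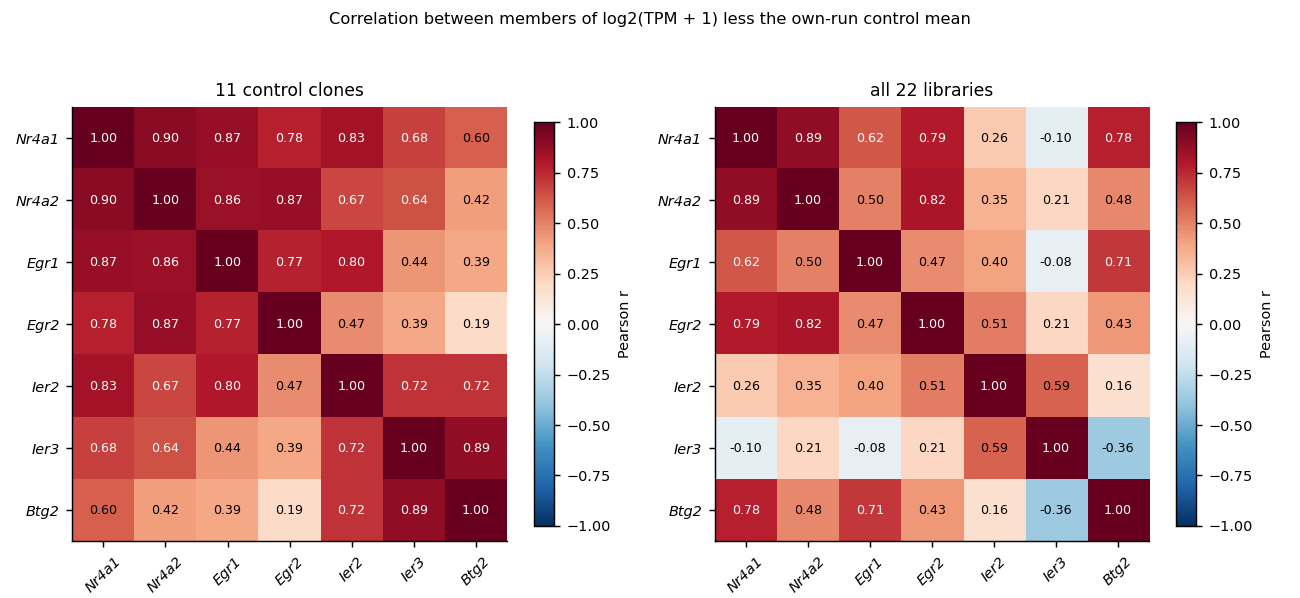
Pearson r between members over the 11 control clones (left) and all 22 libraries (right), on log2(TPM + 1) less the own-run control mean, with the value printed in each cell. Nr4a1 and Nr4a2 stay at 0.90 and 0.89, whereas Ier3 with Btg2 goes from 0.89 to -0.36.

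The genes that work with these factors were taken from 4 lists. In the own-run limma fits, 0 genes on them were called in ATF1-KO and in ATF1/CREB1-KO, beside 0% and 0.0715% of all genes. In the fit over 22 libraries, 1 of 23 other early response genes rose and 1 of 11 upstream genes fell in ATF1/CREB1-KO. That fit called 4.58% of all genes under this label. Of the partners, the NAB corepressors that bind EGR proteins and the RXR receptors that pair with NR4A proteins, 4 of 5 were tested in the triple label. The counts of called genes given for each list in the triple label stand beside the 9.17% of all genes called under it. Nab1 fell, from 86.9 ± 6.87 to 65.0 ± 3.96 TPM (SD, n = 3 each), a log2 change of -0.41 (limma adjusted p = 0.0444), and 3 of the 4 had a lower mean. Of 11 upstream genes, serum response factor with its ETS and MRTF partners and the ERK and RSK kinases, 1 rose and 1 fell. The ETS-domain factor Elk4 fell from 42.7 ± 5.67 to 27.0 ± 1.43 TPM (log2 change -0.64, limma adjusted p = 0.0254). The RSK kinase gene Rps6ka2 rose from 0.470 ± 0.148 to 3.28 ± 1.04 TPM (log2 change 1.52, limma adjusted p = 0.0200).

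Of 12 relatives in the EGR, IER, KLF and BTG/TOB families, 11 were tested and 1 was called, a share close to that of all genes. Ier5l fell from 29.7 ± 3.26 to 17.8 ± 3.16 TPM (log2 change -0.71, limma adjusted p = 0.0377). Among 25 other early response genes 23 were tested, of which 3 rose and 4 fell. Fos, the AP-1 subunit, fell from 27.1 ± 1.40 to 14.4 ± 1.43 TPM (log2 change -0.87, limma adjusted p = 0.00889), and the matricellular genes Ctgf (-1.46, adjusted p = 0.0109) and Cyr61 (-0.87, 0.0463) and the synaptic regulator Arc (-0.64, 0.0314) fell in the same limma test. The AP-1 subunits Fosl1 (1.21, adjusted p = 0.0197) and Fosl2 (0.62, 0.0467) and the kinase Plk3 (0.79, 0.0245) rose. In the fit over 22 libraries, with 8.02% of all genes called, 1 of the 23 rose and 3 fell: Fosl2, Plk3, Cyr61 and Arc were no longer called (limma adjusted p from 0.0514 to 0.128), and Jun, an AP-1 subunit, was (-0.91, 0.0166). Among the relatives that fit called Ier5 (-0.66, limma adjusted p = 0.0338) in place of Ier5l (0.103), and it kept the calls of Nab1, Elk4 and Rps6ka2. The median log2 changes of the 4 lists were -0.39, -0.26, -0.15 and -0.28, beside -0.91 for the members and -0.05 for all genes.

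**Figure D5:**
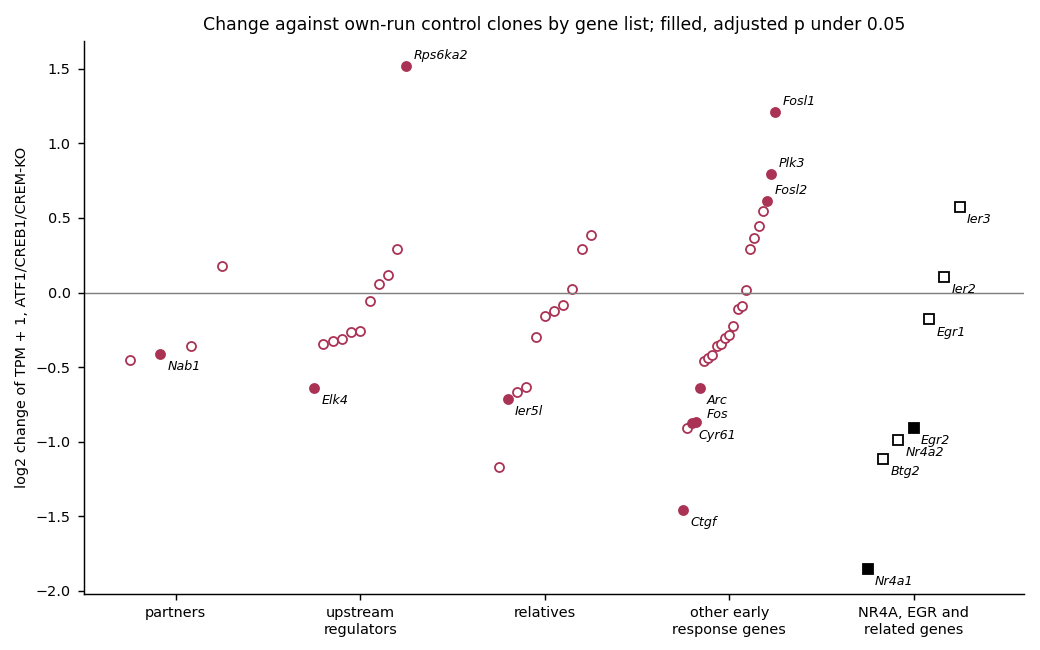
Log2 change of TPM + 1 in the ATF1/CREB1/CREM-KO libraries against control clones 9 to 11 (vertical axis) for each gene tested on the 4 lists (circles) and for the members (squares), sorted within each list, with filled symbols at a limma adjusted p under 0.05. Nr4a1 at -1.85 lies below every gene of the lists, and the called genes of the lists run from -1.46 (Ctgf) to 1.52 (Rps6ka2).

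Genes with the most similar pattern were found by Pearson r over the 22 libraries, on log2(TPM + 1) less the own-run control mean, among 13219 genes. For Nr4a1 they were Rnf166 (r = 0.956), a ubiquitin ligase gene, and Nup133 (r = 0.955), which encodes a nuclear pore subunit. Mean Rnf166 was 47.2 TPM in control clones 9 to 11 and 6.16 TPM in the triple label, and 14.4 and 5.70 TPM in run 2. For Nr4a2 they were Wbp4 (0.920) and Gm42047 (0.914), for Egr1 E2f8 (0.870) and Dusp8 (0.854), and for Egr2 Stambp (0.866) and the water channel gene Aqp5 (0.863). Mean Aqp5 was 83.1 TPM in control clones 9 to 11 and 19.2 TPM in the triple label. For Ier2 they were Nudt21 (0.930) and Babam1 (0.919), for Ier3 Nrp1 (0.867) and Procr (0.859), and for Btg2 Inka2 (0.940) and Psrc1 (0.925). No member was among the closest 2 genes of another.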

How the data were processed

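RNA-seq values were used as deposited. Per the labels' protocols, cDNA was made with a SMARTer low-input kit, tagmented with Nextera XT and sequenced in read pairs. The submitters' processing notes name STAR and RSEM, whereas versions, genome build and annotation are not given in the sources used here. The deposited TPM of 55414 genes carry no read depth, so no counting interval is given. The 10 genes, the gene lists and the tests were chosen with earlier results of these data known, and nothing here is independent of those. With R 4.3.3 and limma 3.58.1 (lmFit, eBayes with trend), log2(TPM + 1) was fitted for all genes averaging 1 TPM or more in the libraries compared, with Benjamini-Hochberg adjustment over all of them. Fold changes on this scale understate changes of scarce genes. Each label was fitted with its own-run control clones only. Differences between labels came from 1 fit with 6 group means over 22 libraries. The fits were tested on simulated data. Exact permutation tests covered 30 comparisons of members. Named genes are the members, the genes used as a check of the labels, the called genes of the lists, and the 2 genes most correlated with each member averaging 1 TPM or more. Alternatives were a pseudocount of 0.1, no TPM minimum, median-ratio scaling, all 11 control clones, the fit over 22 libraries and leaving out each library. Promoters are from RefSeq (GRCm38.p6) and gene positions from GENCODE M21 (GRCm38).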

Additional observations from a re-analysis of the deposited data

Results flagged for a closer look

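Of 20 groups of 5 control or ATF1-KO libraries, 2 held a library whose gap to its nearest neighbour exceeded Dixon's critical share of 0.710 of the group's range, where chance gives about 1 in 20. Egr2 was at 20.68 TPM in control clone 4, a gap of 0.837 of the range. Klf4 was at 1.11 TPM in control clone 1, a gap of 0.819 of the range.

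The change from own-run control clones differed between the ATF1/CREB1/CREM-KO and ATF1-KO labels for Nr4a1, by -2.11 on the log2 scale (limma adjusted p = 8.30e-04), and for Nr4a2, by -1.32 (limma adjusted p = 0.0489). For Nr4a1 all 3 triple-label libraries lay below all own-run controls, and 4 of 5 ATF1-KO libraries lay above the mean of theirs. Label and run cannot be told apart in these differences.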

How the results depend on the processing

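Of the members' changes, and of the differences between labels for Nr4a1, Nr4a2, Egr2 and Btg2, under all alternatives, 439 kept their direction and side of the threshold, 26 lost a call, 13 gained one and 15 changed sign. In the triple label the 2 members called became 1 with no TPM minimum, 0 against all 11 control clones, 3 in the fit over 22 libraries and 1 to 4 with 1 library left out (4 without triple replicate 1). Of all genes, 710 of 23792, 1.03%, 8.02% and up to 25.1% (without triple replicate 1) were called there. In the double label 0 became 4 against all 11 control clones, where 4260 of 13270 genes were called. It became 1 in the fit over 22 libraries, where 4.58% of genes were called. Members differing between double and ATF1-KO labels went from 0 to 1 with median-ratio scaling, beside 389 of 13295 genes. With 1 library left out they were 0 to 1, beside 88 to 620 genes. Those differing between triple and ATF1-KO went from 2 to 1 with a pseudocount of 0.1, no minimum or median-ratio scaling. Of all genes, 373 of 13295, 335 of 30901 and 355 of 13295 were called under these settings. With 1 library left out the members were 1 to 3, beside 273 to 680 genes. The Nr4a1 difference between these labels was called under all 19 alternatives.

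Against all 11 control clones the median of all genes moved to 0.36, -0.96 and 0.28 for the single, double and triple labels, and signs changed for Egr2 (-1.50) and Ier2 (-1.09) in the double label and Egr1 (0.36) in the triple. With a pseudocount of 0.1, Egr2 in the double label was at -0.027. Leaving out 1 library spanned 0 for Egr2 (-0.31 to 0.25) and Ier2 (-0.27 to 0.68) in the double label, Ier2 in the triple (-0.027 to 0.22), Egr3 (-0.012 to 0.31) and Btg2 (-0.088 to 0.19) in ATF1-KO, and the Btg2 difference between triple and double (-0.59 to 0.24). The cause was not tested.

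Over all genes, calls in the triple label went from 1216 of 13258 to 710 of 23792 with no minimum and 137 of 13360 against all 11 control clones. With 1 library left out they ran from 185 of 13234 (without control clone 9) to 3317 of 13233 (without triple replicate 1). Median-ratio scaling moved the lower calls from 698 of 1216 to 606 of 1291. Calls in the double label went from 9 of 12579 to 0 of 25573 with no minimum and 18 of 12579 with median-ratio scaling. They went to 4260 of 13270 with all control clones, 609 of 13295 with 22 libraries, and 0 to 60 with 1 library left out. Calls for double minus ATF1-KO (194) went to 389 with median-ratio scaling and 88 to 620 with 1 library left out, for triple minus double (25) 7 to 59, and for triple minus ATF1-KO (475) 273 to 680.

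With replicate number as a block, 0 members and 0 genes were called in ATF1-KO, as without it, and 927 rather than 1014 genes had an unadjusted p under 0.05. Same-numbered libraries correlated from -0.103 to 0.084, and replicate 5 alone matched its own number best, so the numbers were not used as pairs. No paired analysis was possible because the control clones of runs 2 and 3 share no replicate numbers with the double and triple labels. Read depth is unknown, so limits for Nr4a3, Egr3 and Klf4 cannot be set.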
